A study of Arabidopsis thaliana with 6 samples.

Results

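Dark-grown pifQ seedlings of Arabidopsis thaliana were set against dark-grown Col-0 wild type on 3 two-colour arrays, chosen by their titles out of 6 arrays in the series. The pifQ mutant carries mutations in the 4 genes PIF3, PIF4, PIF1 (PIL5) and PIF5 (PIL6), and each array held pifQ RNA in Cy5 and Col-0 RNA in Cy3. The other 3 arrays held Col-0 kept under constant red light, 24 μmol per m2 and s, against the same kind of dark-grown Col-0. Per the labels, seeds of all groups were plated with 1% sucrose, chilled at 4 °C in darkness for 3 days, exposed to white light (100 μmol m-2 s-1) during 6 h, and the seedlings then grew for 60 h. Per the labels, the 3 replicates of a group came from separately raised and harvested seedlings. RNA came from whole seedlings, so fewer cells of a type and less RNA per cell cannot be told apart. Of 45220 features, 7440 carry a gene name and stand for 7234 genes, and every value below is a log2 ratio over dark Col-0 unless another quantity is named. No source used here states the base of the logarithm, and base 2 was assumed throughout. The named features include 0 of the 4 mutated PIF genes, so these transcripts gave no check of the mutant, and no source used here gives the alleles.

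PIFs (phytochrome-interacting factors) are bHLH transcription factors that bind G-box and related motifs and accumulate in darkness. They keep a germinated seedling in the dark-grown form, with a long hypocotyl, a closed hook and folded cotyledons, and they hold back genes of chlorophyll synthesis and photosynthesis. In light, activated phytochrome binds PIFs and leads to their breakdown, and mutants that lack several PIFs develop in darkness partly as if in light.

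The 3 pifQ arrays differed among themselves. The share of features whose exact value more than 5 features had in common was 21.1%, 13.1% and 37.6% on pifQ replicates 1, 2 and 3, against 37.9% to 41.2% on the red light arrays. Over the 7 genes spotted 10 or more times, the SD between spots of a gene averaged 0.177, 0.234 and 0.0676 on these pifQ arrays, against 0.0493 to 0.0646 on the red light arrays. By both measures pifQ replicate 3 sat with the red light arrays and pifQ replicates 1 and 2 sat apart. The ratios divided the arrays likewise. Across genes, which are not independent replicates, pifQ replicate 3 correlated at r = 0.506 and 0.423 with pifQ replicates 1 and 2, and at 0.695, 0.593 and 0.601 with red light replicates 1, 2 and 3, all of which share dark Col-0 as the reference. pifQ replicates 1 and 2 correlated with each other at r = 0.615, above the value of either with any red light array (0.453 to 0.591). Every mean over the pifQ arrays and every difference from red light combines these unlike arrays. No source used here says what was done differently to these arrays, and its part in the results below was not tested. Over genes, the median SD between the 3 arrays was 0.243 in pifQ and 0.171 in red light.

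**Figure D1:**
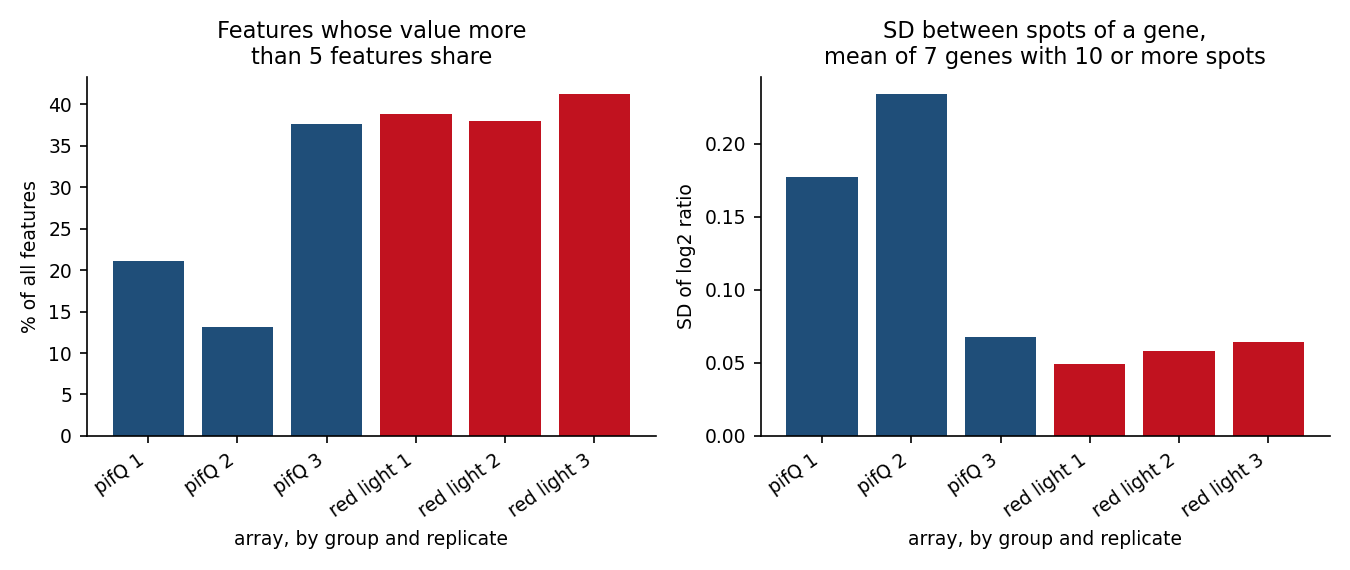
Bars give, for each of the 6 arrays, the percent of all features with a value that more than 5 features share (left) and the SD of log2 ratios between spots of a gene, averaged over 7 genes (right). pifQ replicates 1 and 2 have 21.1% and 13.1% of such features, and the other 4 arrays 37.6% or more.

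In darkness, 13 of 70 measured genes grouped here as photosynthesis and plastid function were higher in pifQ than in Col-0 and 0 were lower. Of 81 genes of wall and growth, 12 were lower and 1 was higher. The first group includes thioredoxin and methionine sulfoxide reductase lists drawn by gene name, whose members need not be plastid genes. All gene lists were drawn with earlier results of these data known, so shares called in them are descriptive and no independent test of a function. By limma with Benjamini-Hochberg adjustment over 7234 genes, 443 passed an adjusted p of 0.05 (6.12%). Of these, 217 were higher (3%) and 226 lower (3.12%), all with the same sign on all 3 arrays. At least 2-fold changes were found for 78 of the higher genes (1.08%) and 81 of the lower genes (1.12%), and at least 4-fold changes for 8 and 10. The 3 arrays did not weigh alike in these calls. The medians over the 217 higher genes were 1.03, 0.92 and 0.75 on pifQ replicates 1, 2 and 3, and replicate 3 was nearest to 0 for 117 of them. The medians over the 226 lower genes were -0.87, -0.86 and -0.90. Without replicate 2, 16 genes were called higher and 28 lower, without replicate 1, 94 and 112, and without replicate 3, 412 and 394. When all 45220 features were fitted and adjusted together, 8 named genes were called higher and 10 lower. Of 80 called genes that the rule on naming picks, 58 lost the call without replicate 2, 27 without replicate 1 and 3 without replicate 3, and 70 with all features fitted together. With each array centred on the median of its named genes, 249 were called higher and 173 lower, so that 59.0% of calls were higher, against 49.0% as deposited. With a spread shared with the red light arrays, the calls were 332 and 509.

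The largest increases in pifQ included a methionine sulfoxide reductase gene and an antenna gene. AT5G48490 stood at 3.78, 3.66 and 1.92 on pifQ replicates 1, 2 and 3, an 8.7-fold mean increase (log2 3.12 ± 1.04, adjusted p = 0.00329). Its ratio on replicate 3 lay well below the other two. MSRB6, of a family that repairs oxidised methionine in proteins, had ratios of 3.05, 3.56 and 2.60, an 8.39-fold increase (log2 3.07 ± 0.48, adjusted p = 0.000572), and was high on every array. AT4G28780 had 2.56, 2.81 and 2.33 (adjusted p = 0.000572), AT1G29660 3.56, 2.83 and 1.37 and AT1G21500 3.00, 3.34 and 1.03. The last pair showed the same gap on replicate 3, whereas the ratios of AT4G28780 lay within a narrow range. ECS1 had 2.59, 1.94 and 1.75 (log2 2.09 ± 0.44, adjusted p = 0.00159). AT3G16670, AT4G23680, AT2G34620, AT5G18600 and AT2G42220 had means of 2.03, 1.90, 1.88, 1.78 and 1.76, and the remaining members of the 15 largest increases were the photosynthesis genes described next.

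The largest decrease was in AT2G42780, at -4.57, -3.65 and -5.55 on pifQ replicates 1, 2 and 3, a mean decrease of 24.1-fold (log2 -4.59 ± 0.95, adjusted p = 0.000572). No array brought this gene near the dark Col-0 level. AT2G43590 followed with -2.40, -2.01 and -3.68 and AT4G35720 with -2.09, -2.42 and -2.95. AT2G42770 had -1.52, -1.65 and -4.10, so that replicate 3 alone carried much of its mean of -2.42 ± 1.46 (adjusted p = 0.0231). AT5G04120 (-2.40, -2.62 and -2.06), AT4G30180 (-2.01, -2.30 and -2.39) and AT3G54830 (-2.22, -2.07 and -1.91) fell by nearly the same amount on all 3 arrays. The other decreases among the 15 largest were AT2G42270, AT2G42760, AT5G02540, AT4G11610, AT3G29410, AT2G40920, AT1G16850 and AT5G02580, with means between -2.40 and -1.92. In the fits that left out 1 array each, 40 genes were called every time, 15 higher and 25 lower. LHCB4.1, MSRB6, ECS1 and the lectin-like gene JAL22 were among those higher, and QQS, GH9B13 and the MYB-type factor gene MYBC1 among those lower (JAL22 and MYBC1 were named after their values were seen).

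The 13 higher genes made up 18.6% of the 70 photosynthesis and plastid genes, against 3% of all genes. This share describes lists drawn with earlier results of these data known. The antenna, photosystem and Calvin cycle lists held 8 of them, the tetrapyrrole list 3, plastid biogenesis 1 and methionine sulfoxide reductases B 1. The 70 genes had means with a median of 0.39 against -0.04 over all genes. The median over these 70 genes was 0.49, 0.58 and 0.04 on pifQ replicates 1, 2 and 3, so that replicate 3 showed almost no shift of the group. Without replicate 2 the count fell to 2 higher, without replicate 1 it was 9, and without replicate 3 it was 33. The count was 2 with all features fitted together, and 0 genes of the group were called lower in any of the fits listed here. Both there and without replicate 2, the genes left were LHCB4.1 and MSRB6.

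In the antenna of photosystem II, LHCB4.1, a minor chlorophyll-binding protein (CP29), stood at 2.76, 2.36 and 2.06 on pifQ replicates 1, 2 and 3, a 5.27-fold increase (log2 2.40 ± 0.35, adjusted p = 0.000572). Its paralogue LHCB4.2 had 2.61, 2.44 and 0.81 (log2 1.95 ± 1.00, adjusted p = 0.0158). LHCB4.1 was high on all arrays, whereas LHCB4.2 was high on replicates 1 and 2 and far lower on replicate 3. LHCB4.3, the third member, had -0.33, 0.00 and -0.94 and did not pass (adjusted p = 0.242). Of 16 genes of photosystems, electron transport and ATP synthase, 5 rose, against 3% of all genes. PSBW, a small subunit of photosystem II, had 2.28, 2.68 and 1.03 (log2 2.00 ± 0.86, 3.99-fold, adjusted p = 0.0102), and PSBY, another, had 2.27, 2.06 and 0.65. ATPC1, which encodes subunit gamma of the plastid ATP synthase, had 1.70, 1.98 and 0.50. For all of these the ratio was lowest on replicate 3. NdhU, a subunit of the chloroplast NADH dehydrogenase-like complex, averaged 1.09 ± 0.70 (adjusted p = 0.0419). CRR41, an assembly factor of the same complex, averaged 0.90 ± 0.34 (adjusted p = 0.0253), and its ratio on replicate 3 lay between the other two. CaS, a thylakoid calcium-sensing protein, had 1.99, 2.41 and 0.13 and did not pass (adjusted p = 0.0565).

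In carbon fixation, RCA, the activase of Rubisco, had ratios of 2.44, 2.25 and 0.90, a 3.63-fold increase (log2 1.86 ± 0.84, adjusted p = 0.0129). The other 3 genes of the list did not pass. PRK, the phosphoribulokinase of the Calvin cycle, had 0.63, 0.62 and -0.72, and SBPASE, its sedoheptulose bisphosphatase, had 0.54, 1.48 and -0.12. PRK was above 0 on replicates 1 and 2 and below 0 on replicate 3. In tetrapyrrole synthesis, which leads to chlorophyll and haem, 3 of 11 genes rose, against 3% of all genes. CHLI2, a subunit of magnesium chelatase, had 1.29, 1.44 and 0.53 (adjusted p = 0.0227). The uroporphyrinogen decarboxylase genes HEME1 and HEME2 averaged 1.26 ± 0.85 and 0.98 ± 0.63 (adjusted p = 0.0411 and 0.0461). CHLM, the methyltransferase that follows magnesium chelatase, had 1.49, 1.03 and 0.20 and did not pass (adjusted p = 0.0615). Quantile normalization and the fits without replicate 1 or without replicate 2 each ended the HEME2 call, and the fits without replicate 1 or without replicate 2 ended those of HEME1 and CHLI2. GSA1 and HEMB1, earlier enzymes of the pathway, averaged 0.62 ± 0.91 and 0.60 ± 0.70 and did not pass.

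In the plastid itself, Cpn60beta2, a chaperonin subunit, was the 1 gene of 17 biogenesis and protein quality genes that rose (2.34-fold, log2 1.22 ± 0.64, adjusted p = 0.0256). Unlike most genes of the group, it was high on replicates 2 and 3 and lower on replicate 1. The redox lists of the group were not limited to plastid proteins. None of 14 genes of thioredoxins, peroxiredoxins and glutathione reductases passed, ty2 having the smallest p (log2 0.63 ± 0.26, adjusted p = 0.0558). Of 5 methionine sulfoxide reductase B genes, only MSRB6 passed, and the others had means between -0.03 and 0.18.

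**Figure D2:**
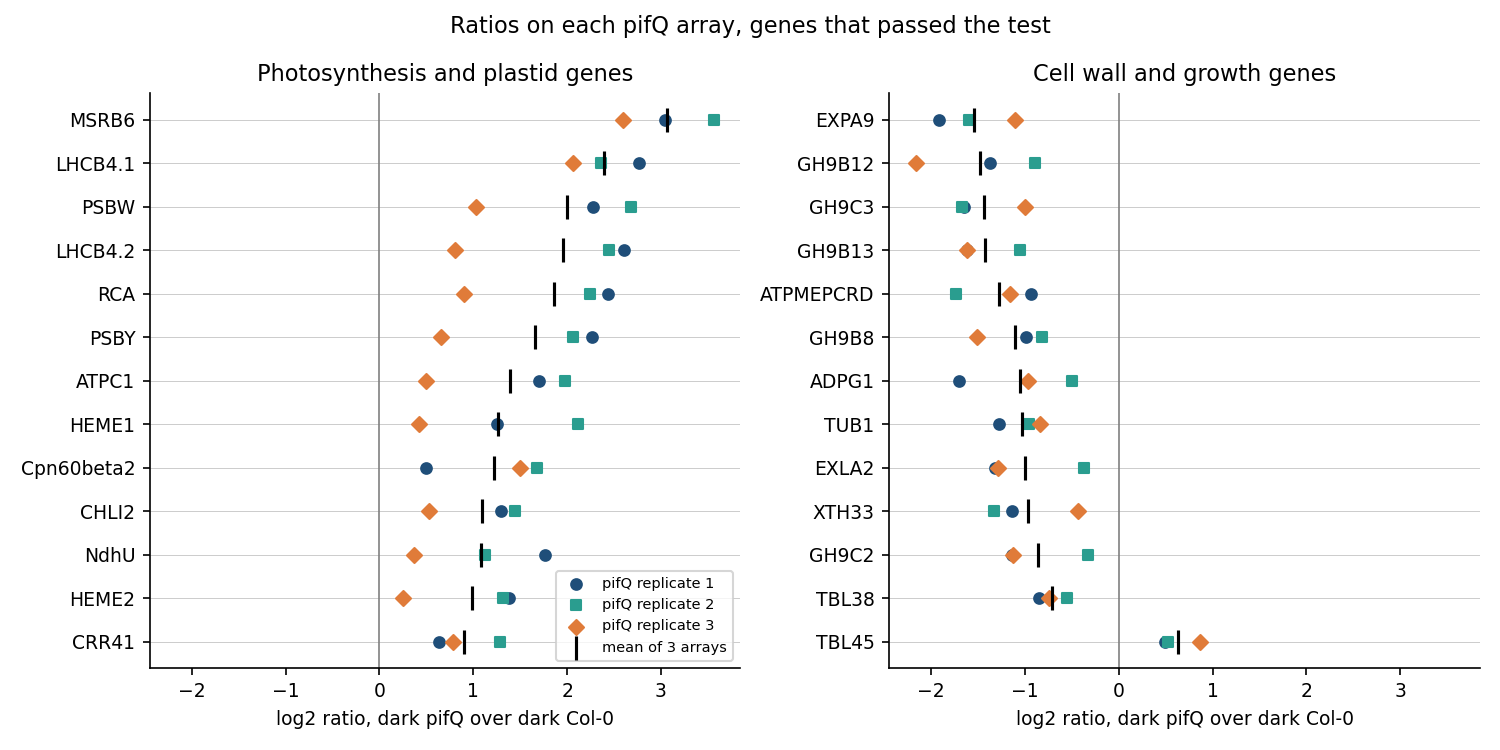
Points give the log2 ratio of dark pifQ over dark Col-0 on each pifQ array, and the vertical tick their mean, for the 13 photosynthesis and plastid genes (left) and the 13 cell wall and growth genes (right) that passed an adjusted p of 0.05. Ratios on replicate 3 (diamonds) are the lowest of the 3 for 11 of the 13 genes on the left, and TBL45 is the 1 gene above 0 on the right.

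Of the 81 genes in 8 lists of wall and growth, 14.8% were lower in pifQ, against 3.12% of all genes, while the median over the 81 genes was -0.13 against -0.04 over all genes. These lists too were drawn with earlier results of these data known. Without replicate 2 the count was 2 lower, without replicate 1, 7, and without replicate 3, 17. None was called with all features fitted together. The decrease was most frequent in glycosyl hydrolase family 9, endoglucanases that cut glucan chains of the wall. Of its 8 measured genes 5 fell and the list median was -1.04. GH9B13 had -1.62, -1.05 and -1.62 on pifQ replicates 1, 2 and 3 (log2 -1.43 ± 0.33, 2.69-fold lower, adjusted p = 0.00453). GH9B12 had -1.38, -0.89 and -2.16 (adjusted p = 0.014), and GH9C3 averaged -1.44 ± 0.38 (adjusted p = 0.00544). GH9B12 was lowest on replicate 3 and GH9C3 nearest to 0 there, so the arrays did not rank these genes alike. GH9B8 averaged -1.10 ± 0.36 and GH9C2 averaged -0.87 ± 0.46. GH9B15 had -1.90, -1.21 and 0.16 and did not pass, and GH9B7 and GH9B9 averaged 0.20 and 0.18.

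Of 8 expansin genes, whose proteins loosen walls during growth, EXPA9 and EXLA2 fell. EXPA9 had -1.91, -1.60 and -1.11 (log2 -1.54 ± 0.41, adjusted p = 0.00453), and EXLA2 had -1.32, -0.37 and -1.29 (adjusted p = 0.034). EXLA2 lay closer to 0 on replicate 2 than on the other two. EXPA4 and EXPA8 had means of 0.00 ± 0.73 and -0.35 ± 0.70, with signs that differed between arrays. Of 6 xyloglucan endotransglucosylase/hydrolase genes, which cut and rejoin xyloglucan, XTH33 fell, at -1.14, -1.33 and -0.44 (adjusted p = 0.0306). XTH19 had -1.17, -0.68 and -0.32, below 0 on every array, and did not pass (adjusted p = 0.0587). Among 9 pectin and xylan genes, the pectin methylesterase gene ATPMEPCRD fell, at -0.93, -1.73 and -1.16 (adjusted p = 0.0102), and so did the polygalacturonase gene ADPG1, at -1.70, -0.49 and -0.96 (adjusted p = 0.0362). TBL38 averaged -0.72 ± 0.15 and TBL45, the 1 gene of the group that rose, averaged 0.63 ± 0.21 (adjusted p = 0.0496). Both belong to a family linked to acetylation of wall polysaccharides, and the TBL45 call ended with a robust prior and without any 1 array. TUB1, a beta-tubulin, fell, at -1.28, -0.96 and -0.84 (adjusted p = 0.0124), as 1 of 15 tubulin and microtubule genes. None of 15 actin, myosin and actin-binding genes passed, and none of 6 cellulose synthase-like and COBRA genes, with COB, a protein of oriented cell expansion, at -0.49 ± 0.11.

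Among 58 genes of hormones and signals, 1 was higher and 1 lower (1.72% each way, near the 3% and 3.12% of all genes). With a spread shared with the red light arrays 2 were higher and 8 lower, and without replicate 3, 3 and 5. IAA29, an auxin-responsive repressor of the Aux/IAA family, had -0.90, -1.84 and -1.91 on pifQ replicates 1, 2 and 3 (log2 -1.55 ± 0.56, 2.92-fold lower, adjusted p = 0.00929). It was the 1 gene of 11 auxin genes that passed, and its decrease was larger on replicates 2 and 3. IAGLU, an enzyme that conjugates auxin to glucose, had -0.52, -0.50 and -1.39 and WAG2, a kinase of auxin transport, had -0.26, -0.78 and -0.50, and neither passed. Both were below 0 on every array. No gibberellin gene of 5 passed, the receptor genes GID1C and GID1B having means of -0.48 ± 0.18 and -0.44 ± 0.37. EIN3, the transcription factor of ethylene signalling, averaged -0.28 ± 0.22 (adjusted p = 0.315), and 0 of 13 genes of ethylene, brassinosteroid, cytokinin and jasmonate passed. RALFL24, a secreted signal peptide of the RALF family, rose, at 1.13, 0.76 and 0.48 (adjusted p = 0.0362), but not with a spread shared with the red light arrays. None of 7 light, shade and clock genes passed: PIF7, a PIF that the mutant keeps, had 0.52, 0.49 and 0.32 (adjusted p = 0.108), and GI, a clock-associated protein, had -0.35, -0.68 and -0.31 (adjusted p = 0.123). PIF7 was above 0 and GI below 0 on every array.

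Of 62 transcription factor genes, 2 rose and 3 fell (3.23% and 4.84%), shares near those over all genes. UPB1, a bHLH factor of root growth, had -1.63, -1.50 and -0.42 (log2 -1.18 ± 0.66, adjusted p = 0.0306), with replicate 3 nearest to 0. ATMYC1, another bHLH factor, rose, at 0.81, 0.60 and 0.71 (adjusted p = 0.0306), with little spread between arrays. The bZIP factor gene bZIP52 averaged -0.82 ± 0.26 (adjusted p = 0.0266). The AP2/ERF factor gene tny (TINY) had -1.31, -1.28 and -0.74 (log2 -1.11 ± 0.32, adjusted p = 0.0125). AGL87, 1 of 26 AGAMOUS-like MADS genes, had 0.41, 0.67 and 1.01 (adjusted p = 0.0458). The shared spread ended this call, and so did leaving out any 1 pifQ array. None of 4 WRKY genes passed.

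In metabolism, 9 of 155 genes rose and 6 fell (5.81% and 3.87%, against 3% and 3.12% of all genes). Without replicate 1 the counts were 4 and 3, without replicate 2, 0 and 1, and without replicate 3, 14 and 10. With all features fitted together they were 0 and 0. In the list of glycolysis and respiration, 2 of 14 genes rose, 12 did not pass, and the median was -0.01. GAPC2, a cytosolic glyceraldehyde-3-phosphate dehydrogenase, had 1.15, 1.17 and 2.19 (2.83-fold, adjusted p = 0.0115) and TPI, a triose-phosphate isomerase, had 0.56, 0.97 and 1.25 (adjusted p = 0.023). Both were highest on replicate 3, where most called photosynthesis genes were lowest. The sugar transporter gene SWEET1 had 1.39, 1.33 and 1.07 (adjusted p = 0.00422), and SFP2, of a sugar transporter family, averaged 0.79 ± 0.22. QQS, an orphan gene linked to starch content, had -1.40, -1.47 and -1.91 (log2 -1.60 ± 0.28, 3.02-fold lower, adjusted p = 0.00255), and all arrays gave much the same decrease. MGL, a methionine gamma-lyase, fell, at -1.15, -1.11 and -1.39 (adjusted p = 0.00459), and PDC3, a pyruvate decarboxylase, at -1.76, -0.61 and -1.18 (adjusted p = 0.0227). Each was the 1 gene called in its list, of 11 amino acid and lipid breakdown genes and of 9 acetyl-CoA and pyruvate genes.

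The remaining metabolic calls were smaller. BGLU44 and BGLU15, beta-glucosidases, averaged 0.82 ± 0.37 and 0.76 ± 0.31, 2 of 11 in their list. BCAT4, an aminotransferase of methionine-derived glucosinolate synthesis, averaged 0.77 ± 0.38, a call that leaving out any 1 pifQ array ended. Among 6 glutathione S-transferase genes, GSTU20 rose (0.78 ± 0.15) and GSTF3 fell (-0.81 ± 0.41). Among 35 other UDP-glycosyltransferase genes, UGT71B1 rose (0.75 ± 0.36, a call that quantile normalization ended) and UGT87A2 fell (-0.65 ± 0.10). The serine carboxypeptidase-like gene scpl40 fell (-0.72 ± 0.31), a call that centring on the median ended. None of 5 anthocyanin and flavonoid genes passed, and DFR, the dihydroflavonol reductase, had -0.29, -0.09 and -1.29. None of 12 cytochrome P450, 7 aldehyde dehydrogenase or 10 autophagy and vacuolar protease genes passed.

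Stress and storage genes were called in 1 direction, 0 higher and 4 lower of 42 (9.52% lower, against 3.12% of all genes). Without pifQ replicates 1, 2 and 3 in turn 3, 0 and 7 were lower, and with each array centred on its median 2. OLEO3, an oleosin of seed oil bodies, had -1.30, -1.23 and -2.25 (log2 -1.60 ± 0.57, 3.02-fold lower, adjusted p = 0.00883), with replicate 3 the lowest. ATHSP22.0, a small heat shock protein, had -1.04, -0.73 and -2.60 (adjusted p = 0.0398). OSM34, an osmotin-like protein, averaged -0.96 ± 0.62 and RD2, a dehydration-responsive gene, -0.68 ± 0.24. In core functions, 1 of 93 genes rose and 4 fell (1.08% and 4.3%, near the shares over all genes). ATL8, PUB25 and PUB19, ubiquitin ligases and the called 3 of 31 genes in their list, averaged -0.81 ± 0.29, -0.68 ± 0.22 and -0.80 ± 0.45. Centring on the median ended the calls of OSM34, RD2, PUB25 and PUB19. SIM, an inhibitor of cyclin-dependent kinases that acts in endoreduplication, had -0.92, -1.06 and -0.71 (adjusted p = 0.0158), and 3xHMG-box2, a protein of mitotic chromosomes, had 0.86, 0.47 and 1.27 (adjusted p = 0.0339). None of 19 chromatin, 17 secretion or 11 RNA polymerase and Mediator genes passed, nor any of 11 transport genes. Of 8 root, guard cell and seed markers, OLEO3 was the 1 gene called. EXPA18, a root hair expansin, averaged 0.23 ± 0.13, FMA, the guard cell factor FAMA, 0.19 ± 0.47, and the seed protein gene LEA4-5 0.68 ± 0.82.

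**Figure D3:**
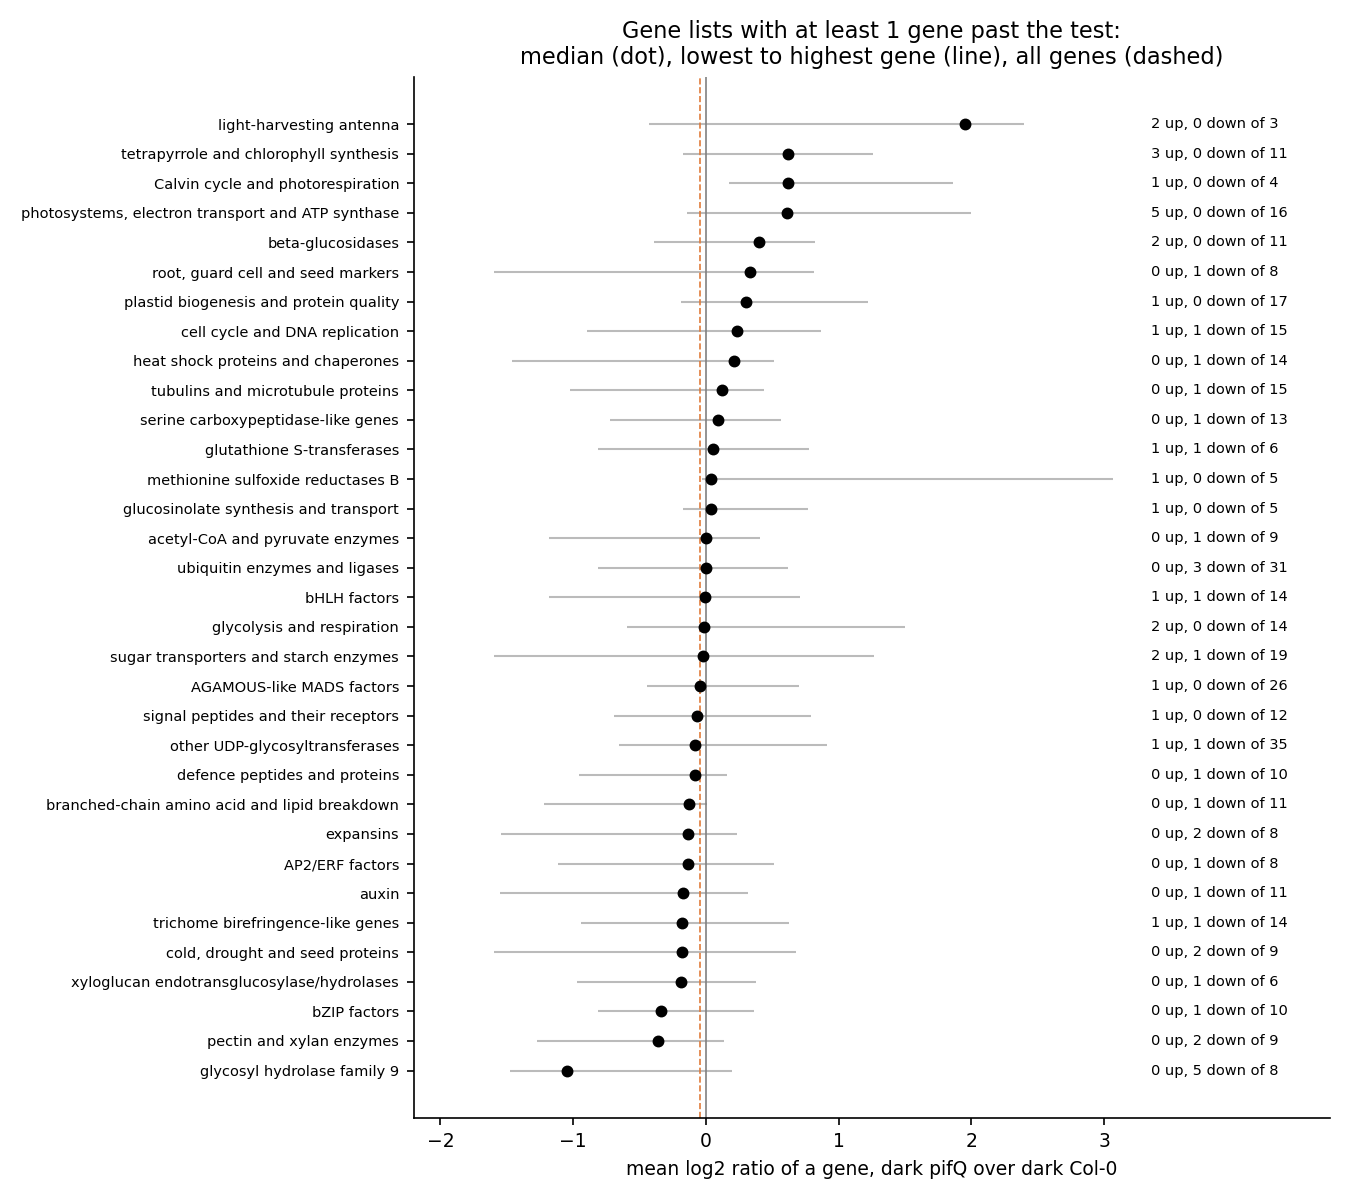
For each gene list with at least 1 gene past the test, the dot gives the median and the line the lowest to highest mean log2 ratio of its genes in dark pifQ over dark Col-0, with counts at the right and the median over all 7234 genes as a dashed line. The light-harvesting antenna lies highest (median 1.95, 3 genes) and glycosyl hydrolase family 9 lowest (median -1.04, 8 genes).

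Dark pifQ and red-light Col-0 were then compared with each other. Both sets of arrays have dark Col-0 as reference, so values are given side by side, and the difference is pifQ minus red light. Its test uses a spread shared between both groups for each gene. The SE can therefore be too small for genes that varied more in pifQ, such as PSBW and RCA below. Over 7234 genes, 243 differed (3.36%), 84 higher in pifQ (1.16%) and 159 lower (2.2%). Of the 217 genes higher in pifQ than in dark Col-0, 23 lay below red light, 3 above it, and 191 did not pass the test of the difference. Their medians were 0.90 in pifQ and 1.38 in red light. Of the 226 lower genes, 18 lay above red light, 14 below it and 194 did not pass, with medians of -0.86 in pifQ and -1.03 in red light. A difference that did not pass does not show that pifQ and red light acted alike. Without red light replicate 1 the counts were 16 higher and 45 lower, and without pifQ replicate 3, 199 and 364.

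Of the 70 photosynthesis and plastid genes, 4 lay below red light in pifQ, against 2.2% of all genes, and 1 above it. All 4 were among the 13 that rose in pifQ, and the other 9 did not pass the test of the difference. LHCB4.1 had 2.76, 2.36 and 2.06 in pifQ and 4.13, 4.31 and 3.68 in red light, a difference of -1.64 (SE 0.23, adjusted p = 0.00969). PSBW averaged 2.00 ± 0.86 in pifQ and 3.98 ± 0.36 in red light, a difference of -1.99 (SE 0.39, adjusted p = 0.032), and RCA 1.86 ± 0.84 and 3.68 ± 0.08, a difference of -1.82 (SE 0.36, adjusted p = 0.032). For LHCB4.1, PSBW and RCA no pifQ array reached the lowest red light array; the arrays of pifQ and red light did not overlap for 23.8% of all genes. MSRB6 averaged 3.07 ± 0.48 in pifQ and 4.34 ± 0.27 in red light, a difference of -1.28 (SE 0.26, adjusted p = 0.0348). MSRB9, of the same family, did not pass against dark Col-0 and lay above red light, by a difference of 1.47 (SE 0.28, adjusted p = 0.0283). ECS1 and AT4G28780 also lay below red light, with differences of -1.97 (SE 0.26, adjusted p = 0.006) and -1.36 (SE 0.18, adjusted p = 0.00719). In the tetrapyrrole list, no gene differed between pifQ and red light by this test.

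Other genes above dark Col-0 in red light did not pass the test of pifQ against dark Col-0. That does not show that they stayed at the dark Col-0 level. DFR had -0.29, -0.09 and -1.29 in pifQ and 4.56, 4.00 and 4.45 in red light, a difference of -4.89 (SE 0.31, adjusted p = 0.000156). AT5MAT, a malonyltransferase of anthocyanins, averaged -0.37 ± 0.57 in pifQ and 2.91 ± 0.27 in red light, and UGT78D2, a flavonoid glucosyltransferase, 0.22 ± 0.39 and 2.41 ± 0.04. These 3 of 5 anthocyanin and flavonoid genes lay below red light, against 2.2% of all genes. Their arrays did not overlap between the groups, as was so for 23.8% of all genes. UGT78D1 averaged 0.75 ± 0.42 in pifQ and 0.96 ± 0.21 in red light with overlapping arrays, a difference of -0.21 (SE 0.23, adjusted p = 0.674), and UGT78D3 was near 0 in both. AT3G28220, AT3G28270, AT1G60590 and AT5G42760 likewise averaged 0.26, 0.50, 0.55 and 0.09 in pifQ and all lay below red light, with a difference of -4.76 (SE 0.23, adjusted p = 5.73e-05) for AT3G28220. PIF7 averaged 0.44 ± 0.11 in pifQ and 2.66 ± 0.17 in red light, a difference of -2.22 (SE 0.16, adjusted p = 0.000271), and GI -0.44 ± 0.20 and 0.70 ± 0.09, a difference of -1.14 (SE 0.16, adjusted p = 0.00992).

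In the other direction, genes low in red light lay higher in pifQ. AT3G02620 averaged 0.24 ± 0.17 in pifQ and -2.83 ± 0.31 in red light, a difference of 3.07 (SE 0.20, adjusted p = 0.000156). AT5G39150, AT5G39160 and AT5G39180, close together in gene order, averaged -1.26 ± 0.31, -0.56 ± 0.09 and -1.13 ± 0.25 in pifQ, and -3.60 ± 0.73, -2.96 ± 0.50 and -3.45 ± 0.70 in red light. Whether their features tell these genes apart is uncertain. ATPMEPCRD averaged -1.27 ± 0.41 in pifQ and -2.94 ± 0.27 in red light, a difference of 1.67 (SE 0.24, adjusted p = 0.00992). AT2G16005, AT2G44370, AT1G45015 and AT4G12545 averaged 0.75, 0.65, -0.16 and 0.16 in pifQ, and were lower in red light in every case. IAA29, called lower in pifQ, did not pass this test, at -1.55 ± 0.56 in pifQ and -1.73 ± 0.08 in red light, a difference of 0.18 (SE 0.26, adjusted p = 0.762).

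**Figure D4:**
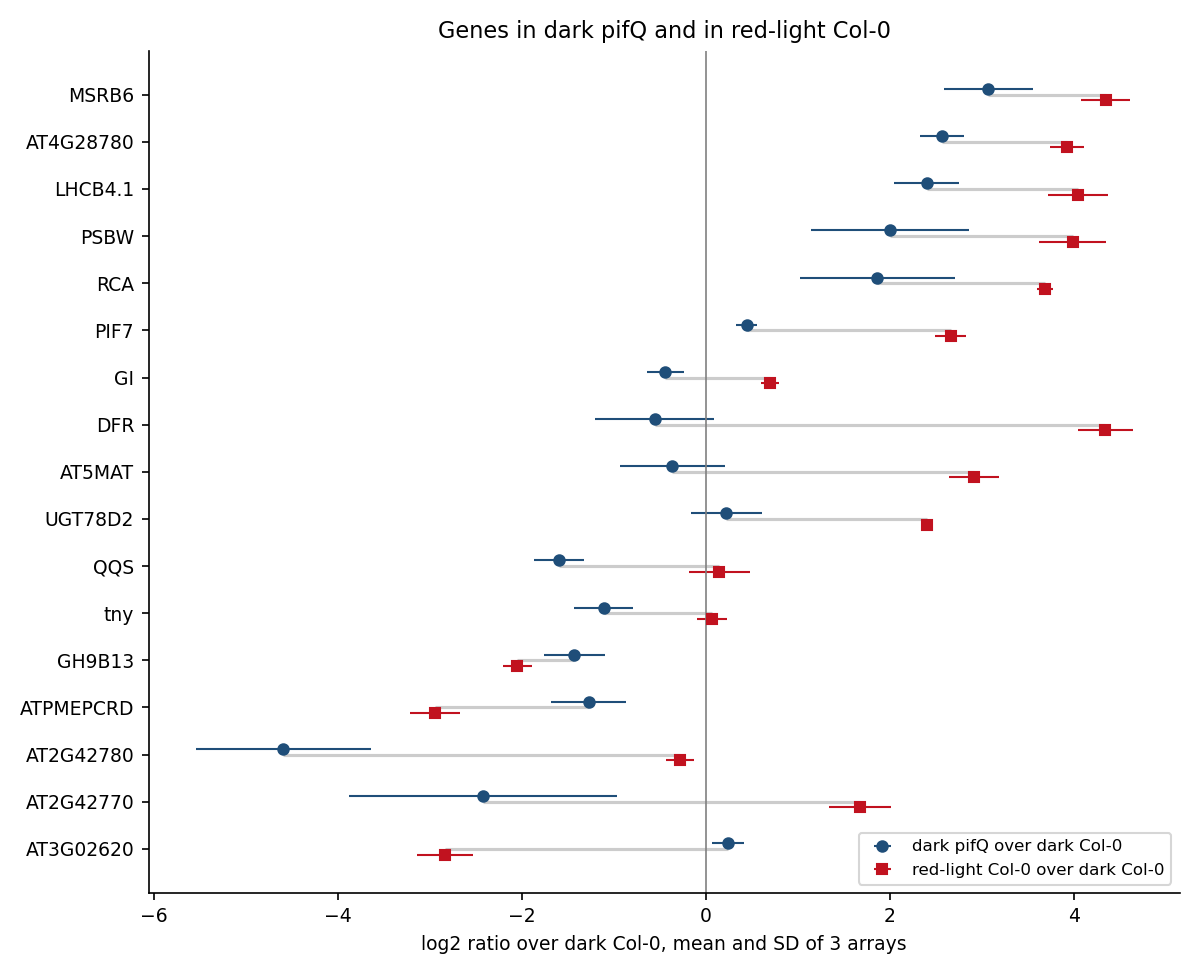
Points give the mean and bars the SD of 3 arrays, for dark pifQ over dark Col-0 (circles) and red-light Col-0 over dark Col-0 (squares), on a log2 axis, for 17 genes named in the text. MSRB6, LHCB4.1, PSBW and RCA are above 0 in both and higher in red light, DFR and AT5MAT are above 0 in red light only, and QQS, tny and AT2G42780 are far below 0 in pifQ only.

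A small set of genes lay below both dark and red-light Col-0 in pifQ, and 8 of these 14 genes lie near PIF4 in gene order. Genes that were lower in pifQ than in dark Col-0 and also below red light numbered 14 of 7234 (0.194%), and 3 were above both (0.0415%). Within 300 protein-coding genes on each side of PIF4 on chromosome 2, a span chosen after the values were seen, 180 genes were measured, 2.49% of all. This span held 57.1% of the 14 genes below both. Without pifQ replicates 1, 2 and 3 in turn, 6 of 7, 4 of 5 and 9 of 39 genes below both lay there. It also held 2 of the 3 genes above both, a count that did not hold: without those replicates in turn it was 0 of 1, 0 of 1 and 3 of 20, and with quantile normalization 1 of 3. Elsewhere 6 of 7054 genes were below both. AT2G42760, AT2G42770 and AT2G42780, consecutive in the gene order, lie 28, 27 and 26 genes before PIF4. AT2G42760 had -1.96, -1.94 and -2.58 on pifQ replicates 1, 2 and 3, and -0.54, -0.04 and -0.28 on the red light arrays. AT2G42770 had -1.52, -1.65 and -4.10 in pifQ and 1.84, 1.89 and 1.29 in red light, and AT2G42780 had -4.57, -3.65 and -5.55 in pifQ and -0.11, -0.40 and -0.33 in red light. All 3 were far below 0 on every pifQ array, and AT2G42770 was above 0 on every red light array. AT2G42270, 80 genes before PIF4, had -2.74, -2.06 and -2.39 in pifQ and -0.14, -0.36 and 0.08 in red light. AT2G40920, farther before PIF4, averaged -1.95 ± 0.48 in pifQ and -0.18 ± 0.27 in red light. On the other side, AT2G43590, AT2G44200 and AT2G44770 averaged -2.70 ± 0.87, -0.98 ± 0.36 and -1.36 ± 0.22 in pifQ, and -0.85 ± 0.41, 0.10 ± 0.07 and -0.30 ± 0.16 in red light.

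Near PIF4, 13 genes were higher and 14 lower than in dark Col-0, 15% of those measured, against 5.90% elsewhere. The median ratio of the 180 genes stayed close to 0, at -0.07, -0.07 and 0.00 on pifQ replicates 1, 2 and 3, so the stretch was not shifted as a whole. Several of its called genes moved the same way in red light, among them AT2G42220 at 1.76 ± 0.87 in pifQ and 2.79 ± 0.17 in red light. Genes above both included AT2G44370, at 0.65 ± 0.19 in pifQ and -1.69 ± 0.36 in red light, and BGLU15, at 0.76 ± 0.31 and -0.19 ± 0.17. The third was AT1G55210 on chromosome 1. The 6 genes below both that lie elsewhere were QQS (log2 -1.60 in pifQ), AT2G05910, tny, AT3G22620, AT3G04140 and AT3G62460. Cut into 135 blocks of 200 protein-coding genes with at least 30 measured, also chosen after the values were seen, the genome had a median of 5.88% of measured genes called and the highest share, 21.1%, in the block that follows that of PIF4. The block that holds PIF4 had 13.8%, and those of PIF3, PIF1 and PIF5 had 3.51%, 7.84% and 3.51%. Blocks far from any mutated PIF gene had as large a share called as that of PIF4: one on chromosome 4 had 15.4%, one on chromosome 5 had 15.2% and one on chromosome 1 had 14.0%. In those blocks 0, 0 and 1 called genes, in that order, also differed from red light in either direction. The block of PIF4 and the block after it had 5 each (8.62% and 7.04% of measured genes), out of 58 such genes among 7234. Of the 5 measured genes nearest on each side of each mutated PIF gene, AT2G43030 (log2 0.89 ± 0.26) and ATPMEPCRD (-1.27 ± 0.41), both just past PIF4, were the ones called. Over all genes 6.12% were called. Both moved the same way and further in red light, at 1.83 ± 0.31 and -2.94 ± 0.27, unlike the genes below both. What sets the genes below both apart was not tested.

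**Figure D5:**
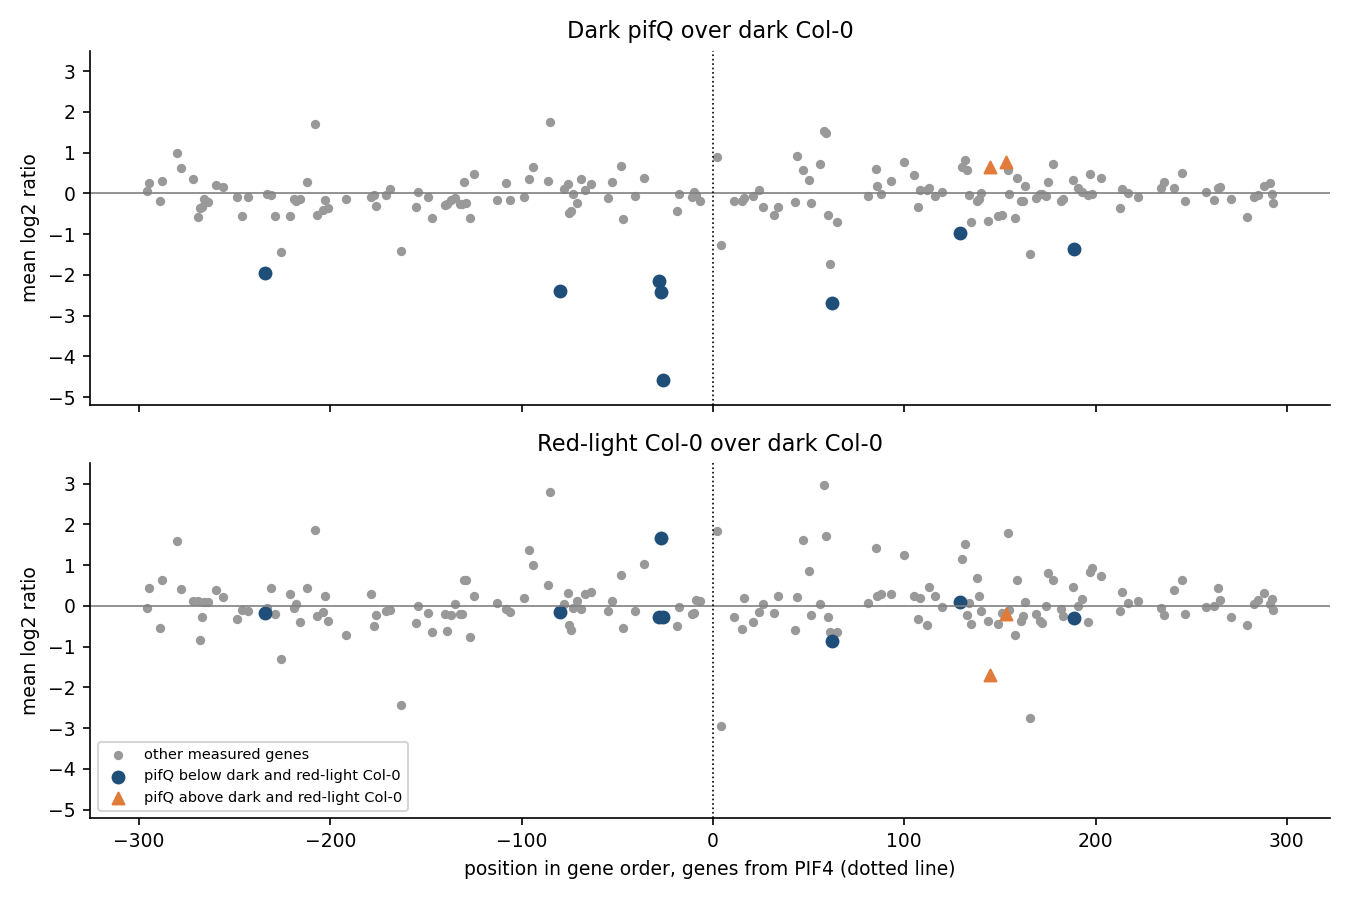
Each point is a measured gene within 300 genes of PIF4 (dotted line), by its place in the gene order and its mean log2 ratio, in dark pifQ over dark Col-0 (top) and red-light Col-0 over dark Col-0 (bottom). The 8 genes marked as below both dark and red-light Col-0 lie between -0.98 and -4.59 in pifQ, and of these AT2G42770 lies highest in red light, at 1.67. Some unmarked genes lie higher still in red light, such as AT2G43550 at 2.96.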

How the data were processed

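Per the labels, total RNA (2 μg per labelling) from seedlings was labelled with Cy5 (pifQ or red light) or Cy3 (dark Col-0), with no dye swap. The authors deposited 1 log ratio per feature and array, with the base not given in the sources used here and taken as log2, and limma is named per the submitters' processing notes. No source used here gives the background correction, normalization or scanner settings. Without intensities, spots near background cannot be recognised. Precision is limited by the number of arrays. The named features were matched by gene identifier to 7234 protein-coding genes of the TAIR10.1 annotation, used for names and gene order only because no source names the build of the features. Where a gene had several features, their mean was taken per array.

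Mean ratios of the 3 pifQ arrays were tested against 0 with limma 3.58.1 in R 4.3.3 (lmFit, eBayes), two-sided, and p-values of all 7234 genes were adjusted after Benjamini-Hochberg (threshold 0.05). The control is the reference channel, so its own spread is left out, and how many dark Col-0 extracts there were is unknown here. The difference from red light was fitted over all 6 arrays, with a spread shared between both groups for each gene. The median SD over genes was 0.243 in pifQ and 0.171 in red light, so a shared spread can understate that of pifQ. Errors are SD over 3 arrays unless SE is named. The method was also run on simulated data with independent errors and, for each gene, equal spread on all arrays of a group. The pifQ arrays differed among themselves, so that run does not show how the method performs on them. Members and gene lists were chosen with earlier results of these data known, and the 50 lists were redrawn from annotation names after a search by name pattern matched clone names. Genes named are the 15 largest changes per direction, up to 4 called members of each list or its member with the smallest p, the 8 largest differences from red light per direction, and the 5 measured neighbours per side of each mutated PIF gene. Other genes named complete a list or a count, and their values were known at that point. No promoter sequence was used here. Samples with the same replicate number were not treated as pairs.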

Additional observations from a re-analysis of the deposited data

How the results depend on the processing

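None of the 80 called genes named by the rule changed direction under the alternatives run. Every call had the same sign on all 3 pifQ arrays, so leaving out, weighting or scaling arrays could not reverse it. The unchanged directions therefore add no evidence for the calls. Of 443 calls in pifQ over dark Col-0, 167 of 217 higher and 169 of 226 lower were called in every alternative that kept all pifQ arrays and used named genes only. Some of these alternatives left out part of the named genes. A spread shared with the red light arrays gave 332 higher and 509 lower, and array weights 364 lower. With all 45220 features fitted together 8 were higher and 10 lower, and all of these were among the calls over named genes. Leaving out 1 pifQ array gave 16 to 412 higher and 28 to 394 lower, with fewer arrays in the test. Same-numbered arrays deviated from their group means at r = -0.18, -0.15 and -0.17, and other pairs of a red light and a pifQ array at -0.11 to 0.26. Deviations of 3 arrays from their mean are bound to sum to 0. These values therefore cannot settle whether samples were paired. With the replicate number as a block over 6 arrays, 235 were higher and 227 lower, and 1 stress and storage gene was lower in place of 4.

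For pifQ minus red light, the replicate block gave 28 higher and 92 lower, scaling to 1 spread 18 and 72, quantile normalization 19 and 55, and array weights 246 and 393. Leaving out 1 array gave 16 to 199 higher and 45 to 364 lower. The fit of pifQ replicate 3 alone, chosen after seeing the data, which assumes that 1 array varies like the red light arrays, gave 7 and 66. The cause of these shifts was not tested.

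All arrays had Cy5 on the mutant or the red light sample, so dye and group cannot be told apart. At an unadjusted p of 0.05, 1662 of 7234 genes passed in pifQ over dark Col-0.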

Other observations

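Some features without a gene name were called too. In the fit over all 45220 features, 35 of 37780 unnamed features were higher and 16 lower in pifQ than in dark Col-0, beside 8 higher and 10 lower among 7440 named features. At an unadjusted p of 0.05, 7055 of 45220 features (15.6%) passed, 13.6% of unnamed and 25.9% of named features. On at least 1 pifQ array, 47.4% of unnamed features had a value that more than 5 features share, against 7.03% of named features. Among named genes outside the lists, AT5G66650 and AT5G51670 were lower on every array, at -2.07, -1.71 and -1.69 and at -1.74, -1.87 and -1.93 on pifQ replicates 1, 2 and 3. AT4G34950, AT5G26280 and AT1G70820 were higher, with means of 1.58, 1.52 and 1.49. These 5 genes were picked after their values were seen, as calls that held without any 1 array and with all features fitted together.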
